A study of Mus musculus with 8 samples.

Results

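Genes of the p53 response and of apoptosis were examined on 8 liver arrays, 4 from SIRT7 KO mice and 4 from WT mice. The genes were chosen by name as known members of this pathway, with earlier results of these data known: Trp53, Cdkn1a, Mdm2, Trp53inp1, Gadd45a, Ccng1, Bax, Bbc3, Fas and Mcl1. Every Affymetrix probe set annotated to a single one of these symbols was kept. This gave 18 of the 22626 probe sets tested and covered 8 of the 10 genes, out of 12393 genes in all. Trp53 and Bax are not analysed here, because the annotation used gives neither of them a probe set with a single symbol. SIRT7 KO mice lack SIRT7, a NAD-dependent histone deacetylase, and the series presents them as a mouse model of nonalcoholic steatohepatitis. No further allele, treatment or agent is given for either genotype, and the sources used here state neither strain, age nor sex for the animals behind these arrays. Each array is labelled as the liver of a mouse of the stated genotype. The paper speaks of littermates in its follow-up of the arrays by PCR, but the labels tie no array to a litter or to a run. The p-values therefore reflect only the variation among these 8 arrays, which may be technical.

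The transcription factor p53 is held at a low level in unstressed cells by the ubiquitin ligase MDM2, itself the product of a p53 target gene. When DNA damage, ribosomal stress or other insults release p53, it binds paired half-sites in the DNA and raises genes that halt the cell cycle, repair DNA or trigger apoptosis. In the liver, Cdkn1a, which encodes the cyclin-dependent kinase inhibitor p21, restrains hepatocyte division, and it is also raised by signals other than p53. Whether cells die depends further on the BCL2 family, in which MCL1 protects hepatocytes, and on death receptors such as FAS.

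The p53 binding consensus consists of a pair of half-sites of 10 bases each, here taken with no spacer between them. It was searched on both strands of the 250 bases before each annotated transcript start, allowing at most 3 mismatches but none at the C and G of the half-site cores. Of all 32851 RefSeq windows of this length, 1.14% held such a match. Of the 10 genes, 9 had a window, and 4 of their 12 windows held a match, in Cdkn1a, Ccng1, Bbc3 and Trp53. The windows of the 3 of these genes that were measured are shown, since each places a candidate p53 site next to a gene whose RNA level follows. They are RefSeq sequences of the GRCm38.p6 assembly on the strand of the gene, 5′ to 3′, and the capitals mark the matched site of 20 bases.
Cdkn1a, chr17:29090729-29090978, plus strand: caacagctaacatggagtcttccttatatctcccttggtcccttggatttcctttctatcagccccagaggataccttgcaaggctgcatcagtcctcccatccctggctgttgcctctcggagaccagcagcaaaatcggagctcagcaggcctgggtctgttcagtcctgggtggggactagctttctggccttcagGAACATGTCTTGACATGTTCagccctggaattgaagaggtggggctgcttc
Ccng1, chr11:40755287-40755536, minus strand: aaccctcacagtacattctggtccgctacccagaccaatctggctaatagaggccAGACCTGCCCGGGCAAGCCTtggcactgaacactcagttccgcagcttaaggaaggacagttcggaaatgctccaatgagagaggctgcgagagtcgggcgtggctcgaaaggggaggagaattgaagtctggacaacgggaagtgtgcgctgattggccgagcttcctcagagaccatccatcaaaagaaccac
Bbc3, chr7:16309333-16309582, plus strand: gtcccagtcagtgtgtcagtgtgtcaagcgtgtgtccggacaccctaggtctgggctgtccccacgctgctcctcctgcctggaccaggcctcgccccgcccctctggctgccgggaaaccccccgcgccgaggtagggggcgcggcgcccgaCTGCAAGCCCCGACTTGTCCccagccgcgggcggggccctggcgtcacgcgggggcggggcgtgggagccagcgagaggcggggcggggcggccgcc
The sites of Cdkn1a and Ccng1 had 1 mismatch each, a level met in 0.0578% of all windows, and that of Bbc3 had 3. In Cdkn1a the site ended 32 bases before an upstream transcript start, and its centre lay 2831 bases before the gene's other annotated start, whose own window held no match. Of the 3 windows of Bbc3, only the one shown held a match. A match describes these letters only and does not show that p53 was bound, and a window without one says nothing of sites elsewhere in a gene.

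The genotype labels were checked first. Sirt7 lay at 4.73, 4.53, 4.40 and 4.90 on the SIRT7 KO arrays, against 8.98, 8.97, 8.88 and 8.57 on the WT arrays, on the log2 scale of all values given here. The groups were far apart, with a difference of -4.21 ± 0.13 (SE, n = 4 per group, limma adjusted p = 9.2e-07), where differences are SIRT7 KO minus WT throughout. The SIRT7 KO values lay near the lower quartile of all probe set means (4.56), where background bounds the size of the fall. Array medians lay between 6.30 and 6.36, and each array correlated with those of its own genotype at a median r of 0.990 to 0.994. WT array 4 had the lowest such r, the lowest median and the lowest array weight (0.539), and results that turn on it are also given without it. The mean level of 8 hepatocyte marker genes, among them Alb and Apoa1, was 14.43 to 14.45 on SIRT7 KO and 14.48 to 14.55 on WT arrays, high levels, as the tissue label implies. These ranges did not overlap, although 0 of the 8 genes passed the test.

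Of the 18 probe sets, 2 rose in SIRT7 KO livers and 0 fell. Here a change means a limma p-value, adjusted over all probe sets, below 0.15. Both belonged to Cdkn1a. Across the array 4.31% of probe sets passed, 1.92% as higher and 2.39% as lower. With dim probe sets left out, 2 of the 17 remaining probe sets passed, where 11.6% of all remaining probe sets did. At the stricter rate of 0.05, limma called 0 of the 18 (0.689% of all probe sets), and 4 had an unadjusted p under 0.05, 3 of them higher, against 14.9% of all probe sets. The median difference of the 18 probe sets was 0.052, beside -0.0031 over all probe sets, and 12 of them were above 0. The values of the genotypes did not overlap in 2 of the 18, a Cdkn1a probe set and that of Bbc3, both higher in SIRT7 KO, whereas 9.35% of all probe sets did not overlap, with 3.79% of all probe sets higher in SIRT7 KO. The other 16 probe sets, of 7 genes, did not pass, with adjusted p between 0.251 and 0.942. For 12 of these 16 the 95% confidence interval of the difference lay within 0.5 of 0 on either side, and over all 16 the intervals reached from -0.74 to 0.72, and changes of any size inside an interval are compatible with these data. In whole liver, fewer cells of a type and less RNA per cell cannot be told apart.

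**Figure D1:**
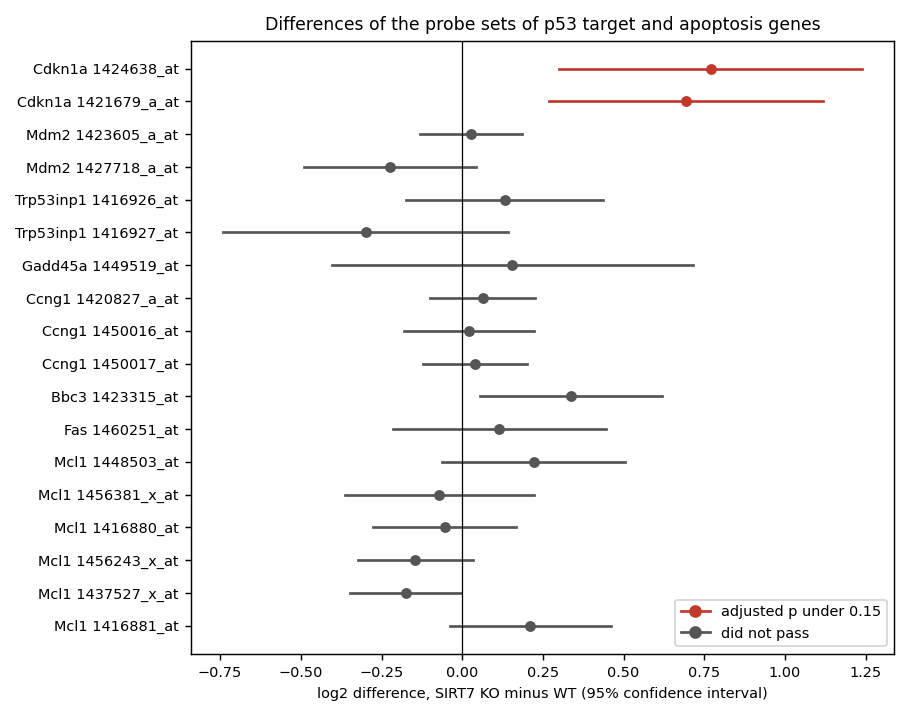
SIRT7 KO minus WT difference in log2 expression (horizontal axis) of the 18 probe sets (vertical axis, gene and probe set). Each point is the limma estimate from 4 arrays of either genotype, with its 95% confidence interval as a line. The 2 probe sets of Cdkn1a lie at 0.77 and 0.69, and the next highest is Bbc3 at 0.34.

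Cdkn1a, the inhibitor of cyclin-dependent kinases, was higher in SIRT7 KO livers by both of its probe sets. Probe set 1424638_at read 7.03, 7.12, 7.70 and 6.73 in SIRT7 KO livers 1 to 4, against 5.94, 6.61, 6.43 and 6.53 in WT livers 1 to 4. All 4 SIRT7 KO values lay above the highest WT value, and SIRT7 KO array 3 was the highest. The difference was 0.77 ± 0.21 (SE, n = 4 per group, adjusted p = 0.133), or 1.71-fold, with a 95% confidence interval from 0.30 to 1.24. Probe set 1421679_a_at read 7.13, 6.84, 7.39 and 6.40 in SIRT7 KO livers, against 6.18, 6.32, 6.42 and 6.07 in WT livers. Here 3 of the 4 SIRT7 KO values lay above all WT values, and SIRT7 KO array 4 (6.40) lay just below WT array 3 (6.42). The difference was 0.69 ± 0.19 (SE, n = 4 per group, adjusted p = 0.133), or 1.62-fold, with an interval from 0.27 to 1.12.

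In both Cdkn1a probe sets array 3 was the highest and array 4 the lowest of the SIRT7 KO livers. The lowest WT liver was array 1 by 1424638_at and array 4 by 1421679_a_at. The mean level was 7.15 ± 0.41 (SD, n = 4) in SIRT7 KO and 6.38 ± 0.30 (SD, n = 4) in WT livers by the first probe set, and 6.94 ± 0.42 (SD, n = 4) in SIRT7 KO and 6.25 ± 0.15 (SD, n = 4) in WT livers by the second. The call rested on the full set of arrays. Probe set 1424638_at passed in 0 of 8 fits that each left out 1 array (adjusted p from 0.151 to 0.269) and 1421679_a_at in 1, the fit without SIRT7 KO array 4 (adjusted p = 0.0853, and from 0.168 to 0.274 in the other 7), although the difference stayed between 0.54 and 0.91. Without WT array 4 it was 0.82 for 1424638_at and 0.64 for 1421679_a_at.

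**Figure D2:**
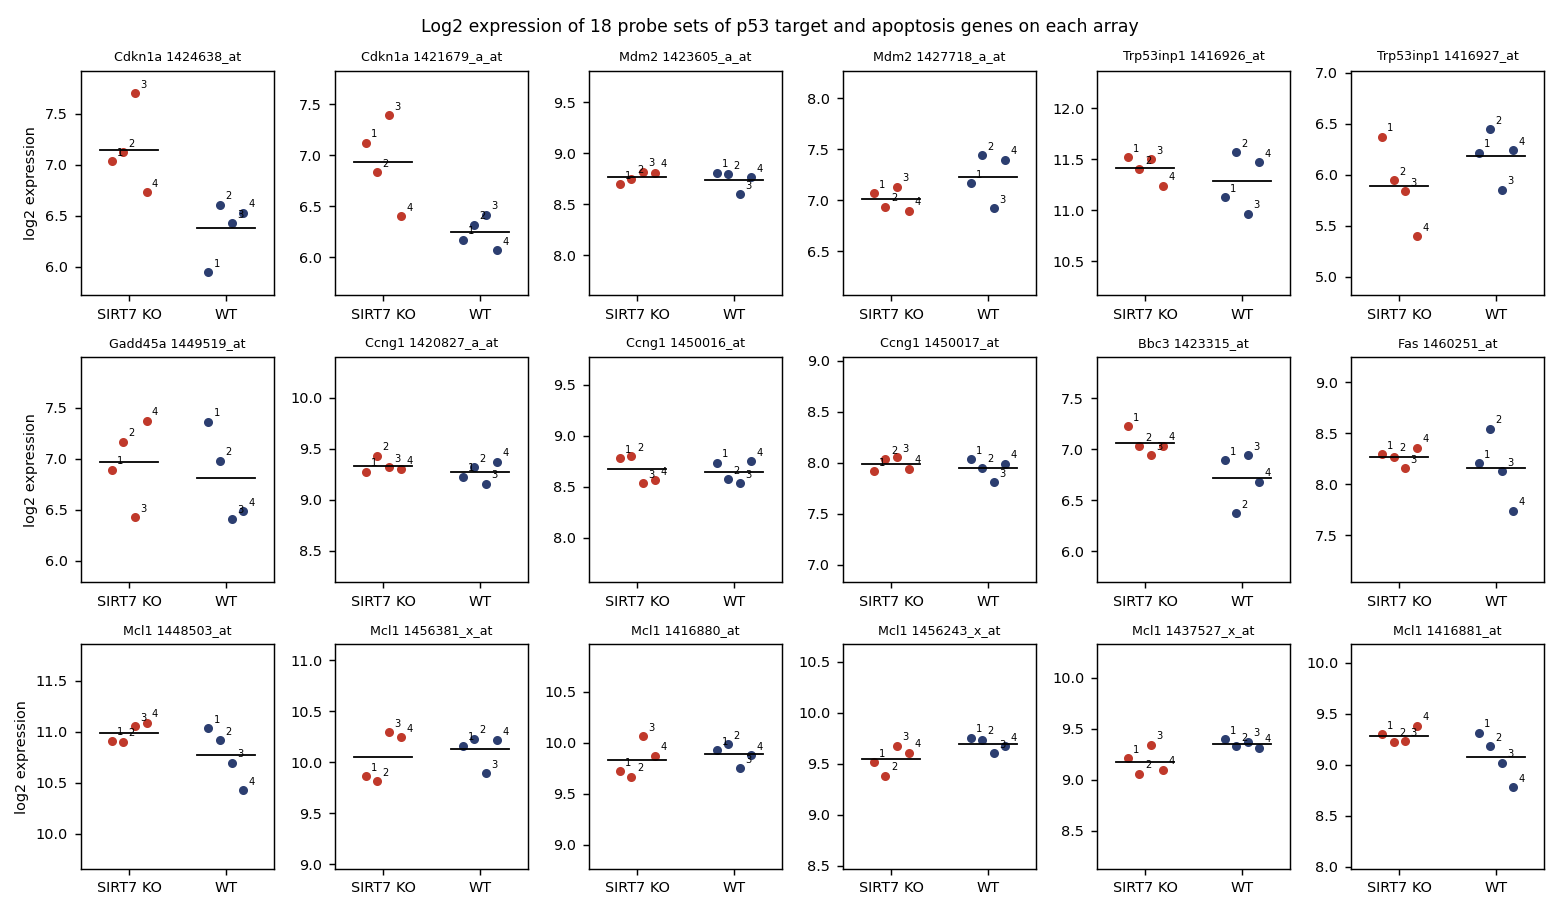
Log2 expression (vertical axes, each spanning the same range) of the 18 probe sets on 4 SIRT7 KO arrays (left in each panel) and 4 WT arrays (right). Points are single arrays with their number, and black lines are group means. The groups stand apart for Cdkn1a 1424638_at, whereas the 3 probe sets of Ccng1 differ by at most 0.063.

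Marker levels of other cell types and of RNA quality were set beside the rise of Cdkn1a. The mean of 4 proliferation markers, among them Mki67, was 5.66 to 6.61 in SIRT7 KO and 5.11 to 6.34 in WT livers, with SIRT7 KO array 2 and not array 3 the highest, and 0 of the 4 passed. All 4 had a difference above 0, with a median of 0.33. The mean of 8 macrophage markers was 9.02 to 9.91 in SIRT7 KO and 8.83 to 9.79 in WT livers. It was highest on SIRT7 KO array 3, where Cdkn1a was highest as well, and 0 of the 8 passed. On SIRT7 KO array 4, where Cdkn1a was lowest of the SIRT7 KO livers, the macrophage mean was 9.64. SIRT7 KO arrays 1 and 2 had 9.08 and 9.02. All 8 macrophage markers had a difference above 0, with a median of 0.21. The mean of 6 endothelial markers was also highest on SIRT7 KO array 3. Of the endothelial markers 1 rose, Lyve1 (1.21, adjusted p = 0.0463), and of 4 stellate cell markers 1 rose, Acta2 (0.61, adjusted p = 0.128). The mean level of the endothelial markers was 7.97 to 8.22 in SIRT7 KO and 7.82 to 8.07 in WT livers, and that of the stellate markers 5.57 to 6.12 in SIRT7 KO and 5.40 to 5.66 in WT livers. Of the 6 endothelial markers 3 had a difference above 0 and 3 below, with a median of -0.0047. All 4 stellate markers had a difference above 0, with a median of 0.23. The mean of 3 neutrophil markers was 5.44 to 10.61 in SIRT7 KO and 5.58 to 11.63 in WT livers, high on SIRT7 KO array 4 and on WT arrays 2 and 3. All 3 had a difference below 0, and 0 passed. Of 5 T and NK cell markers 2 had a difference above 0 and 3 below, with a median of -0.030. Among them Cd3g fell by 0.39 (adjusted p = 0.137). Its groups overlapped, and its mean of 4.58 lay near the lower quartile of all probe set means (4.56). Of 3 B and plasma cell markers 0 were above 0 and 0 passed. Of 3 cholangiocyte markers 2 were above 0 and 0 passed. The 3′ minus 5′ signal of the Gapdh control, which grows as RNA degrades, was -0.016 to 0.160 on SIRT7 KO arrays and 0.163 to 0.289 on WT arrays, with its lowest value on SIRT7 KO array 1. That of the beta-actin control overlapped, at 1.29 to 1.63 on SIRT7 KO arrays and 1.58 to 1.64 on WT arrays. The part of these markers and of RNA quality in the results was not tested.

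Among the genes that feed back on p53, Mdm2, whose product degrades p53, showed no change that passed. Its probe set 1423605_a_at read 8.69, 8.75, 8.82 and 8.81 in SIRT7 KO livers, against 8.81, 8.79, 8.60 and 8.76 in WT livers. The groups overlapped, and the difference was 0.027 ± 0.070 (SE, adjusted p = 0.90), with an interval from -0.13 to 0.19. The other probe set, 1427718_a_at, had the opposite sign (-0.22 ± 0.12 SE, adjusted p = 0.434) with an interval from -0.49 to 0.044. Ccng1 encodes cyclin G1, a p53 target that recruits a phosphatase to MDM2. By probe set 1420827_a_at it read 9.27, 9.43, 9.32 and 9.30 in SIRT7 KO livers, against 9.23, 9.32, 9.16 and 9.37 in WT livers. This is an overlap of the groups within a narrow range. The difference was 0.063 ± 0.072 (SE, adjusted p = 0.751), and those of the other probe sets of Ccng1 were 0.021 (1450016_at) and 0.040 (1450017_at). The highest upper bound of the 3 Ccng1 intervals was 0.23. Ccng1 and Cdkn1a both carry a site of 1 mismatch in the windows shown above, and the intervals of Cdkn1a began at 0.27 for 1421679_a_at and at 0.30 for 1424638_at. Whether p53 acted through either site was not tested.

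Trp53inp1 encodes a stress protein that promotes p53 activity and autophagy. Probe set 1416926_at read 11.52, 11.40, 11.50 and 11.24 in SIRT7 KO livers, against 11.13, 11.57, 10.97 and 11.47 in WT livers. The SIRT7 KO values lay within the spread of the WT values, and the difference was 0.13 ± 0.14 (SE, adjusted p = 0.72). Its second probe set, 1416927_at, had the opposite sign (-0.30 ± 0.20 SE, adjusted p = 0.541) and was the only one of the 18 with a mean below 6.35, the median of all probe set means. Gadd45a, a growth arrest and DNA damage gene, read 6.89, 7.17, 6.43 and 7.38 in SIRT7 KO livers, against 7.36, 6.98, 6.41 and 6.49 in WT livers. Both genotypes thus held a high and a low array. Its difference of 0.16 ± 0.25 (SE, adjusted p = 0.833) had the widest interval of the 16 that did not pass, from -0.40 to 0.72, and bears little on whether Gadd45a changed.

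Of the genes that promote cell death, Bbc3 encodes PUMA, a BH3-only protein that binds and disables BCL2 proteins that protect the cell. It read 7.23, 7.03, 6.94 and 7.04 in SIRT7 KO livers, against 6.89, 6.37, 6.94 and 6.68 in WT livers. The groups did not overlap, but SIRT7 KO array 3 and WT array 3 met at 6.94 to 2 decimals, and WT array 2 was the lowest. Without WT array 2 the difference was 0.22. The difference over all arrays of 0.34 ± 0.13 (SE, 95% confidence interval from 0.054 to 0.62) did not pass (adjusted p = 0.251, and from 0.186 to 0.407 under the alternatives). Fas, the death receptor through which hepatocytes can be killed, read 8.29, 8.27, 8.16 and 8.36 in SIRT7 KO livers, against 8.20, 8.54, 8.13 and 7.74 in WT livers. The SIRT7 KO values lay inside the WT range, and the difference was 0.11 ± 0.15 (SE, adjusted p = 0.781). WT array 4 was the lowest, and without it the difference was -0.023.

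Mcl1, which keeps hepatocytes alive by restraining BAX and BAK, had 6 probe sets, and they disagreed in sign, with 2 above 0 and 4 below. The brightest, 1448503_at, read 10.91, 10.90, 11.05 and 11.09 in SIRT7 KO livers, against 11.03, 10.91, 10.69 and 10.42 in WT livers. WT arrays 3 and 4 were the lowest, and the genotypes overlapped through WT arrays 1 and 2. The difference was 0.22 ± 0.13 (SE, adjusted p = 0.468), and probe set 1416881_at was alike at 0.21 ± 0.11 (SE, adjusted p = 0.43), again with WT array 4 (8.78) lowest. Without that array both differences came to 0.11. Of the 4 probe sets below 0, 1437527_x_at had the smallest adjusted p. It read 9.21, 9.06, 9.34 and 9.10 in SIRT7 KO livers, against 9.40, 9.33, 9.37 and 9.31 in WT livers. In this probe set WT array 4 did not stand apart from the other WT arrays, and the difference was -0.18 ± 0.076 (SE, adjusted p = 0.326). The other 3 were at -0.15 (1456243_x_at), -0.071 (1456381_x_at) and -0.055 (1416880_at). In Affymetrix names an x marks a probe set some of whose probes can match other transcripts, and 3 of the 4 probe sets below 0 carry it. No direction can be given for Mcl1.

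**Figure D3:**
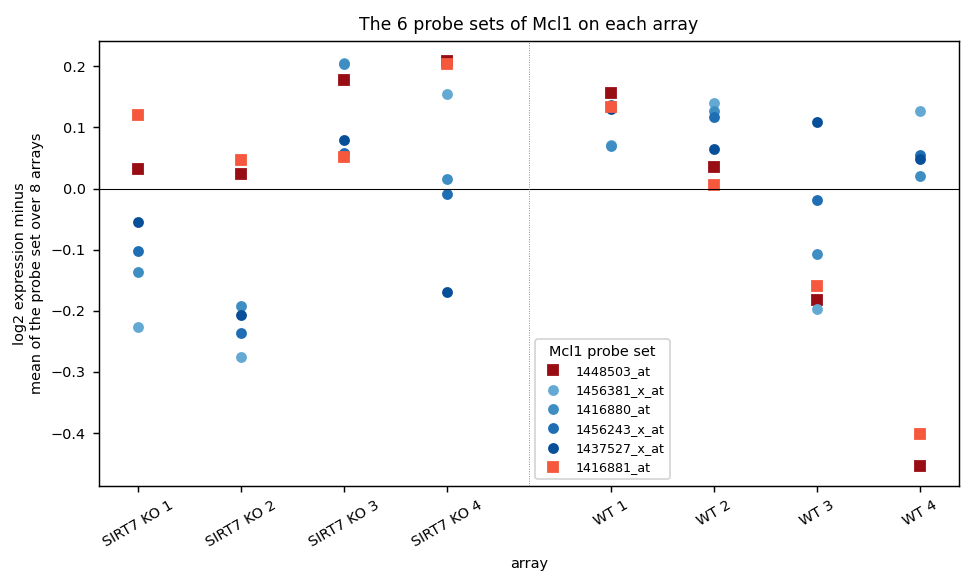
Log2 expression of the 6 Mcl1 probe sets on each array (horizontal axis, SIRT7 KO arrays left of WT arrays), each minus the mean of the probe set over all 8 arrays (vertical axis). Red squares are the 2 probe sets with a difference above 0 and blue circles the 4 below 0. The red squares of WT array 4 lie far below its blue circles.

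The wider pathway was described with 6 further gene lists, each gene by its brightest probe set, and 100 different genes were measured. Of these, 2 rose and 0 fell, namely Btg2 and Cdkn2c, while 4.65% of all genes passed, 2.17% as higher and 2.48% as lower. The median difference of the 100 genes was -0.020, beside -0.0031 over all genes. Of 31 other p53 targets 1 rose and 0 fell, with a median of 0.023 and with 17 of 31 above 0, where 49.3% of all genes were above 0. Of 11 relatives of GADD45, the cyclin-dependent kinase inhibitors and cyclin G, 1 rose and 0 fell, with a median of 0.13 and with 8 of 11 above 0.

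Btg2 is a p53 target that slows cell division and is also induced early by many growth and stress signals. It read 9.19, 8.75, 9.17 and 9.49 in SIRT7 KO livers, against 8.01, 8.31, 7.97 and 8.01 in WT livers, by probe set 1416250_at. The groups were well apart, and the difference was 1.07 ± 0.15 (SE, n = 4 per group, adjusted p = 0.027), or 2.11-fold. Its other probe set, 1448272_at, rose by 1.02 ± 0.17 (SE, adjusted p = 0.0418), and 1416250_at still passed whichever array was left out, its adjusted p then reaching 0.0903 at most. Cdkn2c encodes p18, an inhibitor of CDK4 and CDK6. It read 7.71, 7.69, 7.83 and 7.54 in SIRT7 KO livers, against 7.04, 7.48, 7.26 and 6.88 in WT livers. All SIRT7 KO values lay above all WT values. The difference was 0.53 ± 0.13 (SE, adjusted p = 0.0994), or 1.45-fold, and it was lost without WT array 1 or any of the 4 SIRT7 KO arrays (adjusted p from 0.166 to 0.233).

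**Figure D4:**
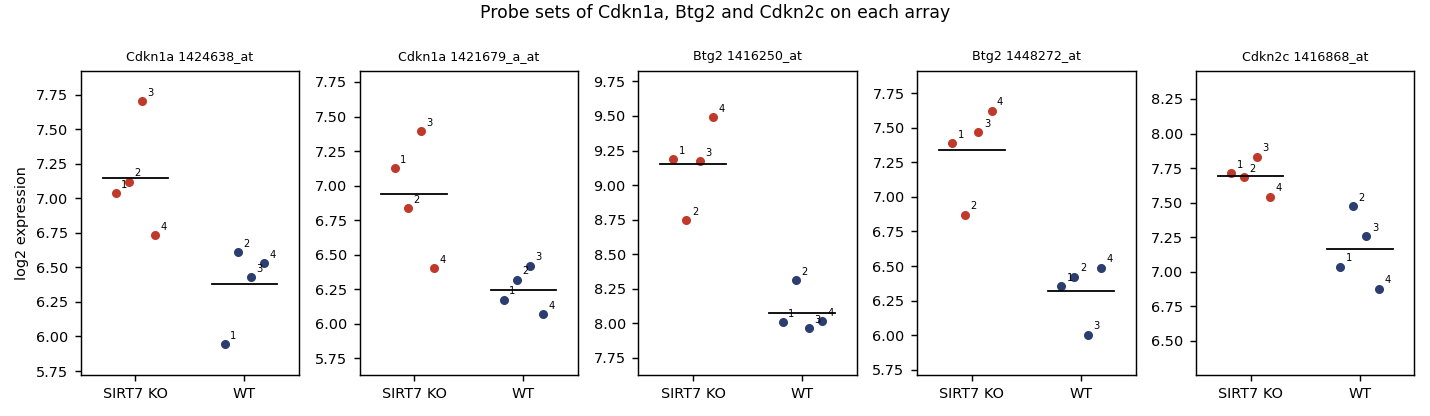
Log2 expression (vertical axes, each spanning the same range) of the probe sets of Cdkn1a, Btg2 and Cdkn2c on 4 SIRT7 KO arrays (left in each panel) and 4 WT arrays (right). Points are single arrays with their number, and black lines are group means. SIRT7 KO array 4 is lowest of its group for Cdkn1a and highest for Btg2, at 9.49 and 7.62.

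Beyond these, 3 genes were singled out after their values were seen, because their differences were large but did not pass. Plk3, a stress-activated polo-like kinase, read 8.47, 8.09, 8.93 and 9.45 in SIRT7 KO livers, against 7.34, 7.70, 6.63 and 8.82 in WT livers (1.11 ± 0.44 SE, adjusted p = 0.276). WT array 4 reached into the SIRT7 KO range, and without it the difference was 1.51 (adjusted p = 0.0982). Ddit4, an inhibitor of mTORC1 signalling, differed by 0.63 ± 0.26 (SE, adjusted p = 0.298). Ccng2, cyclin G2, differed by 0.68 ± 0.25 (SE, adjusted p = 0.245), with SIRT7 KO array 3 highest (9.78), as for Cdkn1a.

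In the lists of p53 regulators, the BCL2 family, death receptors and caspases, limma called 0 genes, while 2, 1, 3 and 1 genes of these lists, in this order, had an unadjusted p under 0.05 (15.6% of all genes). Of 17 regulators of p53, 12 had a difference below 0, and the median was -0.076. Usp7, a deubiquitinase that stabilises MDM2 and p53, read 9.49, 9.50, 9.44 and 9.50 in SIRT7 KO livers, against 9.74, 9.66, 9.69 and 9.63 in WT livers. The groups did not overlap, yet the difference of -0.20 ± 0.058 (SE, adjusted p = 0.152) missed the threshold narrowly. The second Usp7 probe set, a dimmer one with a mean of 4.80, had a difference of -0.085 (adjusted p = 0.749) with an interval from -0.30 to 0.13. Cop1, a ubiquitin ligase that targets p53 among others, was at -0.23 ± 0.071 (SE, adjusted p = 0.177).

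Of 14 other BCL2 family genes 10 had a difference above 0, with a median of 0.029. The smallest adjusted p belonged to Bik (0.22 ± 0.078 SE, adjusted p = 0.225) and Hrk (0.15 ± 0.070 SE, adjusted p = 0.377), both of them genes of pro-apoptotic BH3-only proteins. The means of these probe sets, 6.16 for Bik and 5.36 for Hrk, lay below the median of all probe set means (6.35). That of Bik, 1449836_x_at, carries the x described above. The still dimmer Bik probe sets were at 0.17 (1420363_at, adjusted p = 0.396) and 0.44 (1420362_a_at, adjusted p = 0.438). In the death receptor pathway 5 of 13 genes were above 0, with a median of -0.027. There, Tnf, the tumour necrosis factor gene, lay at 4.86, 4.88, 5.29 and 4.90 in SIRT7 KO livers, against 4.66, 4.59, 4.55 and 4.75 in WT livers, near the lower quartile named before (4.56), and its difference was 0.34 ± 0.10 (SE, adjusted p = 0.169). Traf2, an adaptor of TNF receptors, was at -0.20 ± 0.077 (SE, adjusted p = 0.276). Of 19 caspases and their regulators 8 were above 0, with a median of -0.061. Cycs, which encodes the cytochrome c that is released to activate caspases, was at 0.34 ± 0.11 (SE, adjusted p = 0.183), and Dffb, the caspase-activated DNase, at -0.16 ± 0.084 (SE, adjusted p = 0.441). Less bright probe sets of Cycs were at 0.27 (1422483_a_at, adjusted p = 0.271) and 0.36 (1422484_at, adjusted p = 0.175). That of Dffb was at -0.071 (adjusted p = 0.805).

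**Figure D5:**
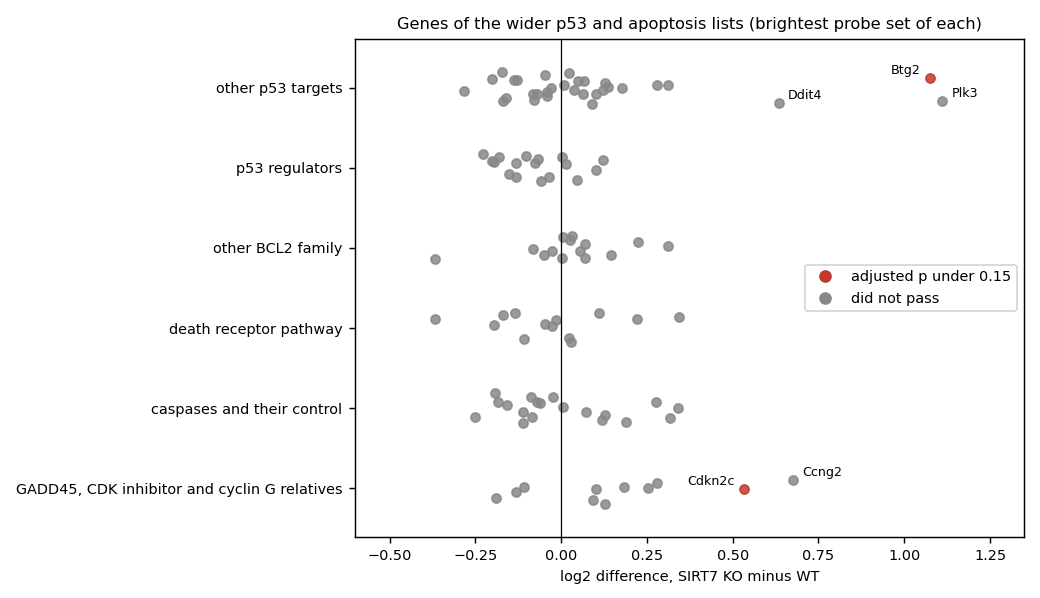
SIRT7 KO minus WT difference in log2 expression (horizontal axis) of every measured gene of 6 wider lists (vertical axis). Each point is the brightest probe set of a gene, shifted up or down at random for clarity, and genes in more than 1 list appear in each. Btg2 at 1.07 and Cdkn2c at 0.53 passed, and Plk3 at 1.11 did not.

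The 3 genes whose pattern over the 8 arrays was most like that of Cdkn1a 1424638_at were sought among 6922 other genes above the median level. They were Apobec1, an RNA-editing enzyme (Pearson r = 0.94, Spearman rho = 0.86), Desi2 (r = 0.94, rho = 0.90) and Irs2, the insulin receptor substrate (r = 0.92, rho = 0.98). These values describe 8 arrays, and the difference between the genotypes enters them. Irs2 passed the test (0.64 ± 0.15 SE, adjusted p = 0.0927), whereas Apobec1 (0.57 ± 0.17 SE, adjusted p = 0.151) and Desi2 (0.47 ± 0.15 SE, adjusted p = 0.192) did not.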

How the data were processed

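Liver RNA of SIRT7 KO and WT mice had been hybridised to Affymetrix mouse arrays, 4 per genotype and 1 per sample. The authors deposited log2 values for every probe set in 1 table, background-corrected, normalized between arrays and summarised over probes. The paper's methods name RMA and the submitters' processing notes GCRMA, and which made the values is unknown. Software versions are not stated. Values were used as deposited. Of 22690 probe sets, 64 controls were left out of the test. Of the 22626 tested, GEO's platform annotation gave 20380 a single symbol, 691 several and 1555 none.

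The genotypes were compared in limma 3.58.1 (R 4.3.3) by a two-sided moderated test with a single genotype term, checked on simulated data, and p-values were adjusted by Benjamini-Hochberg across the 22626 probe sets. Probe sets with an adjusted p below 0.15, the rate named in the paper's methods, were called changed. Wider lists used the brightest probe set of each gene. Named were Sirt7, every probe set of the chosen genes, called genes of each wider list or else the 2 with the smallest p, and the 3 genes most correlated with the most variable chosen probe set above the median level. The genes and lists were chosen with earlier results of these data known. Alternatives were a further quantile normalization, median scaling, trend and robust variance, array weights, a filter on dim probe sets, a false discovery rate of 0.05, a replicate block and leaving out each array. The number of arrays limits the precision.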

Additional observations from a re-analysis of the deposited data

Results flagged for a closer look

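Within the 58 groups of 4 arrays that were examined for a value far from the rest, 3 held one, and chance marks about 1 in 20 groups. WT array 2 lay high for Btg2 1416250_at (8.31, the next WT array 8.01), and stayed below every SIRT7 KO array. SIRT7 KO array 3 lay high for Tnf 1419607_at (5.29, the next SIRT7 KO array 4.90) and low for Usp7 1419920_s_at (9.44, the next SIRT7 KO array 9.49). No probe set of Cdkn1a, Mdm2, Trp53inp1, Gadd45a, Ccng1, Bbc3, Fas or Mcl1 held such a value.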

How the results depend on the processing

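The count of 2 changed probe sets among the 18 was the same under a further quantile normalization, median scaling, trend and robust variance, array weights and the filter on dim probe sets. It was 0 at a false discovery rate of 0.05, and 0 to 1 without single arrays. With only the brightest probe set per gene it was 1 of 8 (12.5%, where 4.65% of all genes passed), since both changed probe sets belong to Cdkn1a. The dim filter left 17 of the 18. Over the whole array 975 probe sets were changed, 1331 with array weights, 1310 of 11313 (11.6%) without dim probe sets, 156 at a rate of 0.05 and 222 to 900 without single arrays. Of the 100 wider genes 2 were changed, 3 with trend and robust variance, 5 with array weights, 7 of 64 (10.9%) without dim probe sets, 1 at a rate of 0.05 and 1 to 3 without single arrays. The genes added were Cycs with trend and robust variance, Cycs, Tnf and Usp7 with array weights, Sirt1 without WT array 3 (-0.34, adjusted p = 0.114), Plk3 without WT array 4, and Cdkn2d, Cop1, Cycs, Fbxw7 and Usp7 without dim probe sets, where fewer probe sets were tested. The cause of the other shifts was not tested.

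The labels do not say whether equal replicate numbers pair the mice. Of 4 same-numbered pairs, 2 deviated together (correlation over 0.1, at 0.26 and 0.15) and 2 in opposite directions (-0.25 and -0.16). A pair with different numbers reached 0.31, and so few pairs cannot settle the question. With the replicate number as a block, 1 of the 18 probe sets, 628 of all probe sets and 2 wider genes were changed, and Cdkn1a 1424638_at had an adjusted p of 0.153.

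Signs turned only for small differences, and only without single arrays. The ranges were -0.020 to 0.052 for Mdm2 1423605_a_at, -0.022 to 0.066 and -0.0054 to 0.070 for Ccng1 1450016_at and 1450017_at, -0.023 to 0.245 for Fas, and -0.15 to 0.0090 and -0.13 to 0.00013 for Mcl1 1456381_x_at and 1416880_at. Other differences that did not pass kept their sign but moved widely, from 0.025 (without WT array 3) to 0.23 (without WT array 2) for Trp53inp1 1416926_at, -0.46 (without SIRT7 KO array 1) to -0.14 (without SIRT7 KO array 4) for Trp53inp1 1416927_at, and 0.019 (without SIRT7 KO array 4) to 0.34 (without WT array 1) for Gadd45a.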
